A study of Homo sapiens with 6 samples.

Results

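The mitochondrial network of a cell is set by fusion of organelles, by their division and by the making of new ones, and 10 genes of these 3 processes are described here: MFN1, MFN2 and OPA1 for fusion, OMA1 for the cleavage of OPA1, DNM1L, FIS1 and MFF for fission, and PPARGC1A, PPARGC1B and TFAM for biogenesis. They were listed by name for their known roles, with earlier results of these data known, and the list uses no threshold on a measured value. All 10 were found by Ensembl identifier among the 60240 genes of the deposited table, and all 10 passed the filter on low values, which kept 18723 genes. The RNA came from HepG2, a human line derived from hepatocellular carcinoma. Control cultures received no GDF11. Treated cultures received recombinant GDF11, a secreted ligand of the TGF-beta family, at 100 ng/ml for 24 h. Each group had 3 libraries, from cultures that the labels call biological replicates of the same line.

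Mitofusins, encoded by MFN1 and MFN2, are GTPases of the outer mitochondrial membrane that tether and fuse neighbouring organelles, and OPA1 is the GTPase that fuses the inner membrane and shapes the cristae. Division is carried out by DRP1, the dynamin-related GTPase encoded by DNM1L, which is recruited from the cytosol by receptors in the outer membrane, MFF among them. In liver cells the transcriptional coactivators PGC-1alpha and PGC-1beta, encoded by PPARGC1A and PPARGC1B, are known for driving mitochondrial genes. PGC-1alpha is also known for driving fasting-related genes, while TFAM packages mitochondrial DNA and is needed for its transcription.

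Values are log2 values after the authors' variance stabilisation, and 5.52 is what this table gives for a gene with no reads. Depth was estimated at 47900000 to 53400000 reads in each library. The line was checked against 10 hepatocyte markers, and all 10 were present. Their summed level was 1625339 to 2218966 normalised reads in the control libraries and 1354738 to 1504574 in the GDF11 libraries. By the limma test described below 5 of them fell with GDF11 and 0 rose, where 10.8% of all tested genes were called lower. APOA2, SERPINA1 and TF overlapped between the groups. APOA1 and HNF4A were lower with GDF11 in all libraries but did not pass the test. Of 5 leukocyte markers, PTPRC and CD3E stood at the lowest value in all 6 libraries, while LYZ, CD68 and CD14 had means of 69877, 2908 and 546 normalised reads in the controls, and LYZ fell with GDF11. Of 6 fibroblast and stellate cell markers, PDGFRB rose and RGS5 differed by 0.033 ± 0.14 (SE, limma adjusted p = 0.891). DCN, LUM, COL1A2 and COL3A1 were below the filter on low values. The part of these marker levels in the results was not tested. SMAD7, an inhibitor that TGF-beta family signals are known to induce, rose by 2.10 ± 0.29 (SE, n = 3 per group, limma adjusted p = 0.00124). Its value was 10.26 in control replicate 3 against 9.30 and 8.98 in control replicates 1 and 2. Without control replicate 3 the difference was 2.48. RNA integrity, as the labels give it, was 9.6 to 9.9 in the controls and 9.4 to 9.6 in the treated libraries. The groups meet only at 9.6, so a fit with RNA integrity as a covariate separates it poorly from treatment. A call can be lost in that fit through lower precision alone. Control replicate 3 differed from its group: on the first principal component of all tested genes it lay at -20.0, against -46.5 and -52.2 for control replicates 1 and 2 and 35.2 to 45.4 for the GDF11 libraries. The results that rest on it are given with and without it.

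With GDF11, DNM1L RNA was 1.79 times the control level and PPARGC1A RNA was higher in the controls by 2.21 times, as ratios of mean normalised reads. The other 8 genes did not pass the test, among them both mitofusins and OPA1. By limma with Benjamini-Hochberg adjustment over the 18723 tested genes (called at an adjusted p under 0.05), 1 of the 10 genes was called higher and 1 lower, while 11.7% of all tested genes were called higher and 10.8% lower. The 10 genes were therefore called about as often as other genes. Their median difference was -0.35 on the log2 scale, against 0.0056 over all tested genes. The 3 control and 3 GDF11 values did not overlap for 6 of the 10 (2 higher, 4 lower with GDF11), against 40.5% of all tested genes. In RNA of whole cultures, fewer cells expressing a gene and less RNA per cell cannot be told apart.

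**Figure D1:**
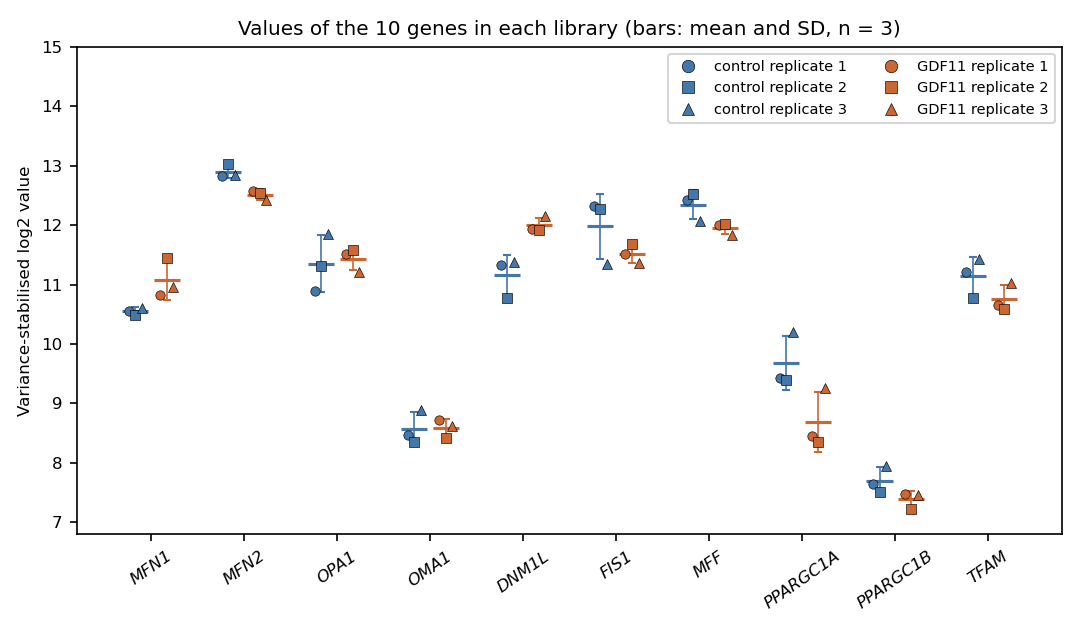
Variance-stabilised log2 value (vertical axis) of the 10 genes in each of the 6 libraries, with horizontal bars at the group mean and error bars of 1 SD (n = 3). The 3 GDF11 values of DNM1L (11.91 to 12.15) lie above all control values and those of PPARGC1A (8.34 to 9.26) below them, and control replicate 3 is apart from the other 2 controls for FIS1 (11.34 against 12.27 and 12.32).

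The 2 mitofusin genes differed in opposite directions, neither past the threshold. MFN1 (ENSG00000171109, chr3:179347709-179394936) had values of 10.56, 10.49 and 10.61 in control replicates 1 to 3 and 10.83, 11.45 and 10.95 in GDF11 replicates 1 to 3. The controls were close together, all GDF11 values lay above them, and GDF11 replicate 2 was well above the other 2. The difference was 0.53 ± 0.18 (SE, n = 3 per group, limma adjusted p = 0.0726), or 1.49 times the control in normalised reads. MFN2 (ENSG00000116688, chr1:11980444-12013508) had values of 12.82, 13.03 and 12.85 in the controls and 12.58, 12.55 and 12.42 with GDF11. All 3 treated values lay below the lowest control. The difference was -0.39 ± 0.14 (SE, limma adjusted p = 0.0851), a control level 1.31 times that with GDF11. Without control replicate 3 both differences passed the threshold, MFN1 at 0.56 (limma adjusted p = 0.0438) and MFN2 at -0.41 (limma adjusted p = 0.0260). With each library's trend on GC content and length removed as well, MFN1 was at 0.32 (limma adjusted p = 0.253). MFN2 was then at -0.54 (limma adjusted p = 0.00153). Without GDF11 replicate 2, MFN1 was at 0.34 (limma adjusted p = 0.254), and when RNA integrity entered the fit as a covariate MFN2 was at -0.23 (limma adjusted p = 0.475).

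Because both mitofusins were measured in each library, their ratio could be compared within libraries. Per kilobase of transcript, MFN2 stood at 5.97, 7.29 and 5.84 times the level of MFN1 in control replicates 1, 2 and 3, and at 4.14, 2.57 and 3.37 times in the GDF11 replicates. MFN2 was the more abundant mitofusin in every library, by 6.37 ± 0.80 times in the controls and 3.36 ± 0.79 times with GDF11 (SD, n = 3), and the 2 groups did not overlap. On the log2 scale the difference MFN1 minus MFN2 was -2.35 ± 0.17 in the controls and -1.44 ± 0.33 with GDF11 (SD, n = 3), a change of 0.91. Its two-sided exact permutation p was 0.1, which is the smallest that 3 libraries against 3 can give, and 0.2 after Benjamini-Hochberg adjustment over the 2 paralogue pairs compared. When each library was left out in turn, the change ranged from 0.74 to 1.07.

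**Figure D2:**
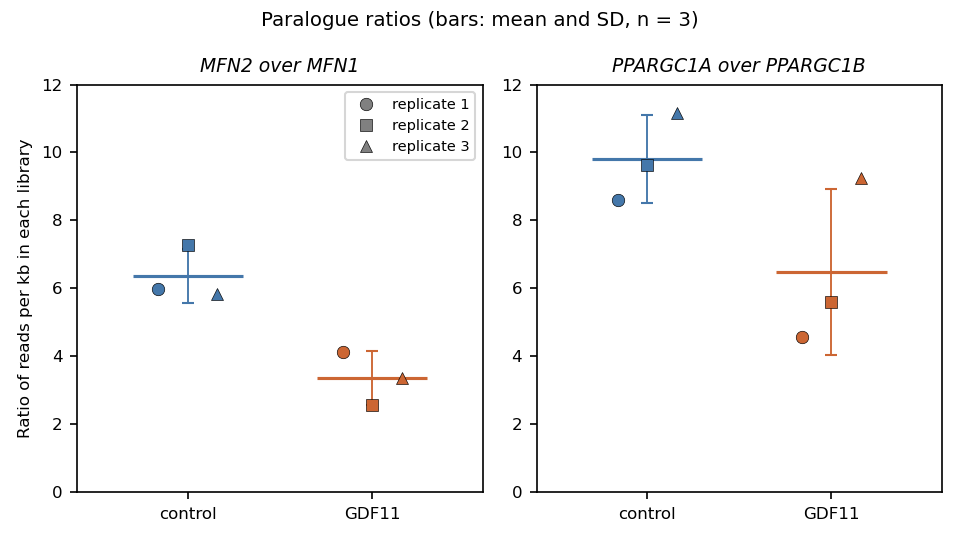
Ratio of reads per kilobase within each library (vertical axis, from 0) for MFN2 over MFN1 on the left and PPARGC1A over PPARGC1B on the right, with bars at the mean and error bars of 1 SD (n = 3). The mitofusin ratio was 5.84 to 7.29 in the controls and 2.57 to 4.14 with GDF11, while the coactivator ratios overlap (8.60 to 11.2 and 4.58 to 9.24).

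The promoters of the 2 mitofusins are shown because the ratio of this pair did not overlap between the groups. Each sequence runs from 250 bases before to 50 bases after the start that RefSeq gives in GRCh38.p14, on the strand of the gene (plus for both; chr3:179347459-179347758 and chr1:11980194-11980493). Capitals mark matches to CCGGAAG, the core that ETS factors such as GABP bind, on either strand.
MFN1: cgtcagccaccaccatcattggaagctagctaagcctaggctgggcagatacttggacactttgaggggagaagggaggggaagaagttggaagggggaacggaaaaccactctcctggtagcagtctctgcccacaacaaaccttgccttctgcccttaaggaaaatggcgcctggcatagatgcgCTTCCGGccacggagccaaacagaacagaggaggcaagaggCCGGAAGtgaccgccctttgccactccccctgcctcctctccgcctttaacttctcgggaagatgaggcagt
MFN2: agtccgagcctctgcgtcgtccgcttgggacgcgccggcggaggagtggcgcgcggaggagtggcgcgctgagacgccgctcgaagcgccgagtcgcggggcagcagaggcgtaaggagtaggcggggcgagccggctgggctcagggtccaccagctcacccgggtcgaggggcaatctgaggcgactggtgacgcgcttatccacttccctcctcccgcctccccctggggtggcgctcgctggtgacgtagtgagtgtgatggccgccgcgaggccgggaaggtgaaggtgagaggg
MFN1 held 2 matches, 1 on the opposite strand beginning 63 bases before the start and 1 on the gene's strand beginning 22 bases before it, and MFN2 held 0. This motif was in 18.0% of the 12137 promoter windows of tested genes, and of the 10 genes MFN1 and FIS1 had it. The windows also differed in composition, with 57.0% GC and 10 CpG dinucleotides for MFN1 and 71.3% GC and 37 CpG for MFN2, against a median of 64.7% and 25 over all windows.

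OPA1 and OMA1 RNA showed no difference past the spread between replicates. OPA1 (ENSG00000198836, chr3:193593208-193697811) had values of 10.90, 11.31 and 11.85 in control replicates 1, 2 and 3 and 11.52, 11.58 and 11.21 with GDF11. The controls alone spanned nearly 1 unit, control replicate 3 was the highest of all 6 libraries, and the groups overlapped. The difference was 0.083 ± 0.24 (SE, limma adjusted p = 0.830), which is small beside its error. Its sign depended on the libraries used: it was -0.14 without control replicate 1 and 0.33 without control replicate 3. Library weights, which gave control replicate 3 a weight of 0.218, put it at 0.45 (limma adjusted p = 0.0393). OMA1 (ENSG00000162600, chr1:58480719-58546726), the stress-activated protease that cleaves long OPA1, had values of 8.47, 8.34 and 8.88 in the controls and 8.72, 8.41 and 8.61 with GDF11. The 2 groups overlapped fully, with a difference of 0.017 ± 0.18 (SE, limma adjusted p = 0.956). Gene-level values say nothing of the balance between long and short OPA1 protein, or of OPA1 splice forms.

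Among the fission genes DNM1L rose and its membrane receptors did not. DNM1L (ENSG00000087470, chr12:32679301-32745650) had values of 11.33, 10.78 and 11.38 in control replicates 1 to 3 and 11.93, 11.91 and 12.15 with GDF11, or 2487, 1666 and 2577 normalised reads against 3809, 3762 and 4444. Every treated library lay above every control, and control replicate 2 was the lowest. The difference was 0.83 ± 0.19 (SE, n = 3 per group, limma adjusted p = 0.0147). It was as large without control replicate 3, at 0.94 (limma adjusted p = 0.00332). The call ended without GDF11 replicate 3, at 0.76 (limma adjusted p = 0.0645), and when RNA integrity entered the fit as a covariate, at 0.42 (limma adjusted p = 0.288). RNA integrity was lower in the GDF11 group, and its part in the result was not tested beyond that fit.

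The DNM1L promoter is shown as that of the 1 gene of the 10 that rose (GRCh38.p14, chr12:32679051-32679350, plus strand, 250 bases before to 50 bases after the RefSeq start). It held 70.0% GC and 21 CpG dinucleotides and stands without capitals because none of the 5 motifs searched was in it.
DNM1L: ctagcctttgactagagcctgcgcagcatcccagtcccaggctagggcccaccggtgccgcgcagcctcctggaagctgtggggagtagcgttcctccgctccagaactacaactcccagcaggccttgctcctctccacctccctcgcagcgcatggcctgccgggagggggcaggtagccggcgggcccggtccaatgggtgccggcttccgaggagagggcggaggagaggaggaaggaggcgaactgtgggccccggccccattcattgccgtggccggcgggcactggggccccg
The motifs, searched on both strands as exact letters, were CGCANGCG of the nuclear respiratory factor NRF1, CCGGAAG of ETS factors, TGACGTCA of CREB, TGANTCA of AP-1 and GTCTAGAC, the SMAD palindrome. They were in 17.8%, 18.0%, 3.14%, 4.92% and 0.173% of all 12137 windows. The absence of a match says only that these letters are not in this window.

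FIS1 and MFF encode tail-anchored proteins of the outer membrane. MFF is a receptor for DRP1, and FIS1 acts in fission with a role that differs between species and cell types. FIS1 (ENSG00000214253, chr7:101239472-101245081) had values of 12.32, 12.27 and 11.34 in control replicates 1, 2 and 3 and 11.51, 11.69 and 11.36 with GDF11. Control replicate 3 was the lowest of all 6 libraries, 0.95 below the mean of the other 2 controls, so the groups overlapped. The difference was -0.46 ± 0.26 (SE, limma adjusted p = 0.230) with all 6 libraries. Without control replicate 3 it was -0.77 (limma adjusted p = 0.00208), and when RNA integrity entered the fit as a covariate it was 0.22 (limma adjusted p = 0.686).

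MFF (ENSG00000168958, chr2:227325251-227357836) had values of 12.43, 12.53 and 12.07 in control replicates 1, 2 and 3 and 11.84 to 12.03 with GDF11, or 5416, 5834 and 4214 normalised reads against 3993, 4077 and 3577 in GDF11 replicates 1, 2 and 3. The groups did not overlap, but control replicate 3 lay only just above the treated libraries. The difference was -0.39 ± 0.17 (SE, limma adjusted p = 0.121), a control level 1.33 times that with GDF11. Without control replicate 3 it was -0.53 (limma adjusted p = 0.00789), and when RNA integrity entered the fit as a covariate it was -0.035 (limma adjusted p = 0.936). Control replicate 3 was thus the lowest control for both FIS1 and MFF, while for DNM1L it was the highest.

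PPARGC1A fell with GDF11, while PPARGC1B and TFAM did not pass the test. PPARGC1A (ENSG00000109819, chr4:23792021-24472905) had values of 9.43, 9.40 and 10.20 in control replicates 1 to 3 and 8.45, 8.34 and 9.26 in the GDF11 replicates, or 603, 586 and 1088 normalised reads against 264, 239 and 525. In each group replicate 3 was the highest, and the highest treated library lay just below the lowest control. The difference was -0.99 ± 0.29 (SE, n = 3 per group, limma adjusted p = 0.0408). This call ended when any 1 library other than GDF11 replicate 3 was left out: leaving out control replicate 1, 2 or 3 gave -1.12, -1.13 and -0.73, and leaving out GDF11 replicate 1 or 2 gave -0.88 and -0.82, with limma adjusted p from 0.0522 to 0.126. When RNA integrity entered the fit as a covariate it was -1.85.

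The PPARGC1A window is shown as that of the 1 gene of the 10 that fell (GRCh38.p14, chr4:24472856-24473155, minus strand, written 5′ to 3′ along the gene, 250 bases before to 50 bases after the RefSeq start). It lies at the outermost start of the gene model, and which start HepG2 cells use was not measured.
PPARGC1A: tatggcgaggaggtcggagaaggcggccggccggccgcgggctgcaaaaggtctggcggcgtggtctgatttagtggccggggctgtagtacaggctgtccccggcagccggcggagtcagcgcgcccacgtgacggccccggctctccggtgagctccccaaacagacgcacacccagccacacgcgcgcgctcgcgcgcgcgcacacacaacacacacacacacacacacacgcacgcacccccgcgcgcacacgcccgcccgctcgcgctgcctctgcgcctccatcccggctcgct
It held 72.0% GC and 42 CpG dinucleotides and matched none of the 5 motifs. Over the 10 genes the NRF1 motif was in the windows of OPA1, OMA1 and TFAM, beginning 93, 27 and 62 bases before the start, AP-1 was in that of OMA1, and CREB and SMAD matches were in 0 of the 10. The PPARGC1B window among these (chr5:149771690-149771989) lies inside the gene and not at its listed start (chr5:149730310).

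PPARGC1B (ENSG00000155846, chr5:149730310-149857959), the gene of the coactivator most similar to PGC-1alpha, had values of 7.64, 7.51 and 7.95 in the controls and 7.47, 7.22 and 7.45 with GDF11. All treated values lay below the controls by a narrow margin, with a difference of -0.32 ± 0.16 (SE, limma adjusted p = 0.172). Its level of 128 ± 31.9 normalised reads in the controls (SD, n = 3) was the lowest of the 10 genes, and at a value of 8 the scale keeps only 0.696 of a true log2 change. TFAM (ENSG00000108064, chr10:58385410-58399220) had values of 11.21, 10.78 and 11.42 in control replicates 1, 2 and 3 and 10.65, 10.59 and 11.03 with GDF11. Control replicate 2 lay below GDF11 replicate 3, so the groups overlapped, and the difference was -0.38 ± 0.20 (SE, limma adjusted p = 0.205). For both genes replicate 3 was the highest control. On a log2 scale of normalised reads plus 1 PPARGC1B differed by -0.52, and removal of each library's trend on GC content and length put PPARGC1B at -0.56 and TFAM at -0.55 (limma adjusted p = 0.0102 and 0.0114). RNA integrity as a covariate put TFAM at -0.91 (limma adjusted p = 0.0294), and without control replicate 3 TFAM was at -0.24 and PPARGC1B at -0.19.

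Within libraries, PPARGC1A stood at 8.60, 9.62 and 11.2 times the level of PPARGC1B per kilobase in control replicates 1, 2 and 3 and at 4.58, 5.62 and 9.24 times in the GDF11 replicates. PPARGC1A was the more abundant coactivator RNA in all 6 libraries, and GDF11 replicate 3 lay within the control range. On the log2 scale the difference PPARGC1A minus PPARGC1B was 1.98 ± 0.24 in the controls and 1.30 ± 0.44 with GDF11 (SD, n = 3). The change of -0.67 had a two-sided exact permutation p of 0.2, also 0.2 after adjustment over the 2 pairs. With 3 libraries against 3 this test cannot go below 0.1, and the groups overlapped.

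Levels of different genes were compared as normalised reads per kilobase of the Ensembl canonical transcript. In the controls FIS1 stood highest at 4740 ± 1611 (SD, n = 3; range 2884 to 5779), followed by MFF at 2683 ± 438 (2194 to 3037) and MFN2 at 1719 ± 140 (1624 to 1879). The ranges of FIS1 and MFF overlapped, while MFN2 lay below MFF and far above the next gene. DNM1L at 497 ± 111 (369 to 571), TFAM at 438 ± 99.8 (331 to 529) and OPA1 at 407 ± 140 (282 to 559) had overlapping ranges. MFN1 at 271 ± 12.7 (258 to 283) only just reached the lowest OPA1 library. OMA1 at 160 ± 41.2 and PPARGC1A at 121 ± 45.4 had overlapping ranges, and PPARGC1B at 12.1 ± 3.02 was well below all others. These overlaps are between libraries. Within each control library FIS1 stood above MFF, DNM1L above TFAM, OPA1 above MFN1 and OMA1 above PPARGC1A. The place of OPA1 against DNM1L and TFAM differed between control libraries. FIS1 and MFF thus stood above DNM1L in every control library on this scale.

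With GDF11 the order of these length-scaled levels was similar from FIS1 (3287 ± 384, SD, n = 3) through MFF (2021 ± 139) and MFN2 (1310 ± 77.7) to DNM1L (887 ± 84.4). DNM1L, at 833 to 985 in the treated libraries, no longer overlapped OPA1 (419 ± 56.9, 354 to 461). MFN1 at 405 ± 102 (331 to 521) overlapped OPA1 and TFAM (329 ± 59.3, 289 to 397). PPARGC1A at 54.5 ± 25.2 (38.0 to 83.6) lay below OMA1 (160 ± 21.6, 137 to 180). OMA1 also stood above PPARGC1A within each control library, although their ranges overlapped there.

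The wider pathway was described by 8 lists with 92 genes, of which 91 passed the filter on low values. Of these 91, 6 were called higher (6.59%) and 13 lower (14.3%), against 11.7% and 10.8% of all tested genes, and the median difference was -0.13. The calls of lower genes depended on the libraries: without control replicate 3 there were 12 higher and 28 lower, when 19.5% of all tested genes were called higher and 21.3% lower, and without any 1 of the other 5 libraries 1 to 3 genes were called lower, when 5.10% to 6.35% of all tested genes were. RNA integrity as a covariate left 3 higher and 1 lower, with 6.14% and 3.85% of all tested genes. The lowest count of higher genes with 1 library left out was 4 (4.40%), when 7.46% to 8.10% of all tested genes were called higher.

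Among 12 genes that assist fusion or process OPA1, 4 fell (33.3%, against 10.8% of all tested genes) and 0 rose. The median was -0.21, and 5 of the 12 had differences above 0. The 4 were PLD6, a mitochondrial surface phospholipase that promotes mitofusin-dependent fusion, at -0.92 ± 0.15 (SE, limma adjusted p = 0.00289), and the inner membrane scaffold genes PHB2 at -1.02 ± 0.25 (0.0204), PHB1 at -0.73 ± 0.20 (0.0288) and STOML2 at -0.81 ± 0.22 (0.0294). YME1L1, the protease that shares OPA1 cleavage with OMA1, differed by 0.25 ± 0.19 (limma adjusted p = 0.375). PLD6 passed the threshold under all 17 alternative settings. The 3 scaffold genes were also low in control replicate 3, by 0.84 for PHB2, 0.56 for PHB1 and 0.70 for STOML2 below the mean of the other 2 controls. Each of the 3 lost its call when control replicate 1, control replicate 2, GDF11 replicate 1 or GDF11 replicate 3 was left out, and PHB1 and STOML2 also without GDF11 replicate 2. Over these losses PHB2 ranged from -1.09 to -0.85, PHB1 from -0.79 to -0.59 and STOML2 from -0.89 to -0.65. When RNA integrity entered the fit as a covariate the 3 were at -0.26, -0.22 and -0.23 (limma adjusted p = 0.482, 0.492 and 0.565).

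Of 11 fission helpers, 1 rose and 1 fell, with a median of -0.19. SPIRE1, an actin nucleator with a mitochondrial form, rose by 1.65 ± 0.25 (SE, limma adjusted p = 0.00223), and its call ended only when RNA integrity entered the fit as a covariate (1.11, limma adjusted p = 0.0728). MTFP1, an inner membrane protein that promotes fission, fell by 1.02 ± 0.25 (SE, limma adjusted p = 0.0185). It lost its call without control replicate 1, control replicate 2, GDF11 replicate 1 or GDF11 replicate 3, at -1.06 to -0.85, and was at -0.31 (limma adjusted p = 0.465) with that covariate. The other DRP1 receptors did not pass the test: MIEF1 differed by -0.45 ± 0.15 (limma adjusted p = 0.0551) and MIEF2 by 0.18 ± 0.17 (limma adjusted p = 0.488). MIEF1, at 12.15 ± 0.16 in the controls and 11.70 ± 0.044 with GDF11 (SD, n = 3), did not overlap between groups.

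The 9 genes of the MICOS complex and its partners hold the cristae junctions. Of these, 2 fell (22.2%, against 10.8% of all tested genes) and 0 rose, with a median of -0.29. They were CHCHD6, a MICOS subunit, at -0.60 ± 0.18 (SE, limma adjusted p = 0.0450), and SAMM50, the outer membrane partner of the complex, at -0.56 ± 0.17 (SE, limma adjusted p = 0.0481). Both lay close to the threshold and lost the call when any 1 library other than control replicate 3 was left out, at -0.65 to -0.48 and -0.60 to -0.45. RNA integrity as a covariate put CHCHD6 at -0.20 and SAMM50 at -0.15 (limma adjusted p = 0.639 and 0.661). Of 5 tested genes of mitochondrial transport along microtubules, RHOT2, which encodes the motor adaptor Miro2, fell by 0.62 ± 0.18 (SE, limma adjusted p = 0.0395), with the same losses at -0.71 to -0.51, and was at -0.25 (limma adjusted p = 0.528) with that covariate. The other 4 did not pass, and SNPH, the gene of the anchor protein syntaphilin, was below the filter.

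Among 14 other regulators of mitochondrial biogenesis, 1 rose and 1 fell, and the median difference was 0.035. PRKAA2, the alpha2 subunit of the energy sensor AMPK, rose by 1.55 ± 0.21 (SE, limma adjusted p = 0.00122) and passed the threshold under all 17 alternative settings. ESRRA, a nuclear receptor that works with PGC-1alpha, fell by 0.60 ± 0.16 (SE, limma adjusted p = 0.0267), and lost its call when any 1 library other than control replicate 3 was left out (-0.63 to -0.50) and with RNA integrity as a covariate (-0.27, limma adjusted p = 0.372). PPRC1, the gene of the third PGC-1 family coactivator, differed by -0.17 ± 0.15 (limma adjusted p = 0.448), and the transcription factor gene NRF1 by -0.24 ± 0.15 (limma adjusted p = 0.292).

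Of 19 genes for replication and transcription of mitochondrial DNA, 1 rose and 3 fell, and 15 of the 19 had differences below 0, with a median of -0.26. TK2, the mitochondrial thymidine kinase that supplies nucleotides, rose by 0.66 ± 0.16 (SE, limma adjusted p = 0.0186). LONP1, the matrix protease known to degrade TFAM, fell by 0.63 ± 0.16 (0.0228), TOP1MT, the mitochondrial topoisomerase, by 0.53 ± 0.15 (0.0317) and MTERF4 by 0.46 ± 0.15 (0.0499). The 3 lower genes lost their calls when any 1 library other than control replicate 3 was left out, at -0.68 to -0.54, -0.57 to -0.44 and -0.53 to -0.37. TK2 lost its call without control replicate 1 or any 1 GDF11 library, at 0.56 to 0.71. RNA integrity as a covariate ended all 4 calls, with LONP1 at -0.35, TOP1MT at -0.35, MTERF4 at -0.35 and TK2 at 0.68 (limma adjusted p from 0.111 to 0.315). TK2 lost its call there although its difference was no smaller than in the main fit. The mitochondrial RNA polymerase gene POLRMT differed by -0.49 ± 0.21 (limma adjusted p = 0.125), and TFB2M, its initiation factor, by -0.13 ± 0.18 (limma adjusted p = 0.637).

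None of the 13 proteins encoded by mitochondrial DNA, whose transcription depends on TFAM, had RNA past the threshold, and all 13 overlapped between groups. Their differences ran from -0.81 for MT-ND3 to 0.29 for MT-ND6, with a median of -0.11. Mitochondrially encoded genes of all kinds, not these 13 alone, made up 6.13%, 6.94% and 4.43% of the normalised reads of control replicates 1 to 3. The share was 5.30%, 6.14% and 4.82% in the GDF11 replicates. Control replicate 3 was the lowest of all 6 libraries. Without it 4 of the 13 were called lower (30.8%) and 0 higher, with a median of -0.41. In that fit 21.3% of all tested genes were called lower and 19.5% higher. The direction depended on the fit. RNA integrity as a covariate put all 13 above 0, with a median of 0.61 and none called. Quantile normalization gave a median of 0.18 with 2 called higher (15.4%) and 0 lower. In that fit 11.3% of all tested genes were called higher and 11.8% lower.

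Mitophagy, the removal of whole mitochondria, was represented by 8 genes, of which 3 rose and 1 fell, with a median of 0.44. OPTN, an autophagy receptor for ubiquitinated mitochondria, rose from 10.47 ± 0.13 to 11.89 ± 0.076 (SD, n = 3), a difference of 1.42 ± 0.14 (SE, limma adjusted p = 0.000232). PINK1, the kinase that marks damaged mitochondria, rose by 0.83 ± 0.17 (SE, limma adjusted p = 0.00899), and both genes passed the threshold under all 17 alternative settings. BNIP3L rose by 0.60 ± 0.13 (0.0135) and BNIP3 fell by 0.67 ± 0.15 (0.0142), although both encode related receptors of the outer membrane. These 2 lost their calls without control replicate 1 or any 1 GDF11 library, at 0.55 to 0.61 for BNIP3L and -0.71 to -0.65 for BNIP3, and with RNA integrity as a covariate, at 0.57 and -0.49 (limma adjusted p = 0.0687 and 0.145).

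**Figure D3:**
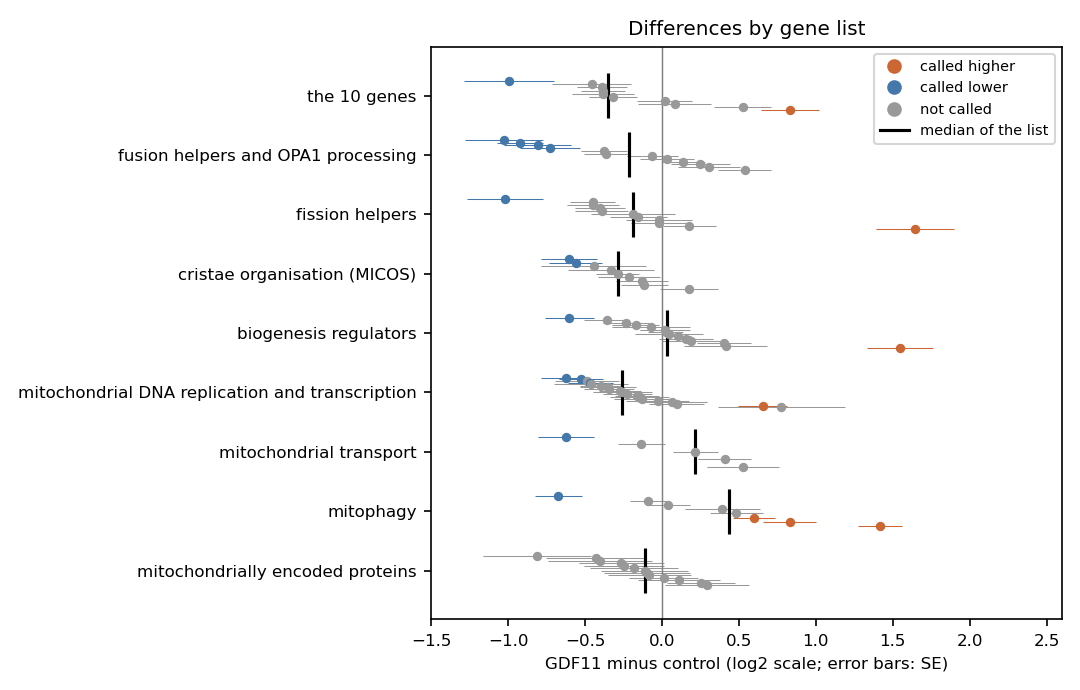
Difference GDF11 minus control on the log2 scale (horizontal axis) with its SE for the 10 genes and for each tested gene of the 8 pathway lists, coloured by the limma call, with a black bar at the list median. SPIRE1 (1.65), PRKAA2 (1.55) and OPTN (1.42) lie farthest to the right, and the list medians run from -0.35 for the 10 genes to 0.44 for mitophagy.

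The 10 genes were not equally dependent on the libraries and the fit. DNM1L stayed above 0 and PPARGC1A below 0 in all 17 alternative settings, at 0.42 to 0.94 and -1.85 to -0.73. MFN1 also stayed above 0 (0.32 to 0.65), and MFN2 (-0.54 to -0.23), MFF (-0.53 to -0.035), PPARGC1B (-0.59 to -0.19) and TFAM (-0.91 to -0.24) stayed below 0. OPA1, OMA1 and FIS1 took both signs. Without control replicate 3, 2 of the 10 genes were called higher and 3 lower, where 19.5% and 21.3% of all tested genes were called. Their counts against this background depended on the fit. Library weights gave 3 higher and 5 lower (23.9% and 24.3% of all tested genes). Removal of the GC and length trend gave 1 and 4 (13.9% and 16.7%). Without control replicate 3 as well it gave 1 and 6 (19.8% and 24.3%). Leaving out control replicate 1 or 2 or GDF11 replicate 1 or 2 gave 1 and 0 each (7.46% to 8.62% and 5.35% to 6.35%). RNA integrity as a covariate gave 0 and 2 (6.14% and 3.85%).

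**Figure D4:**
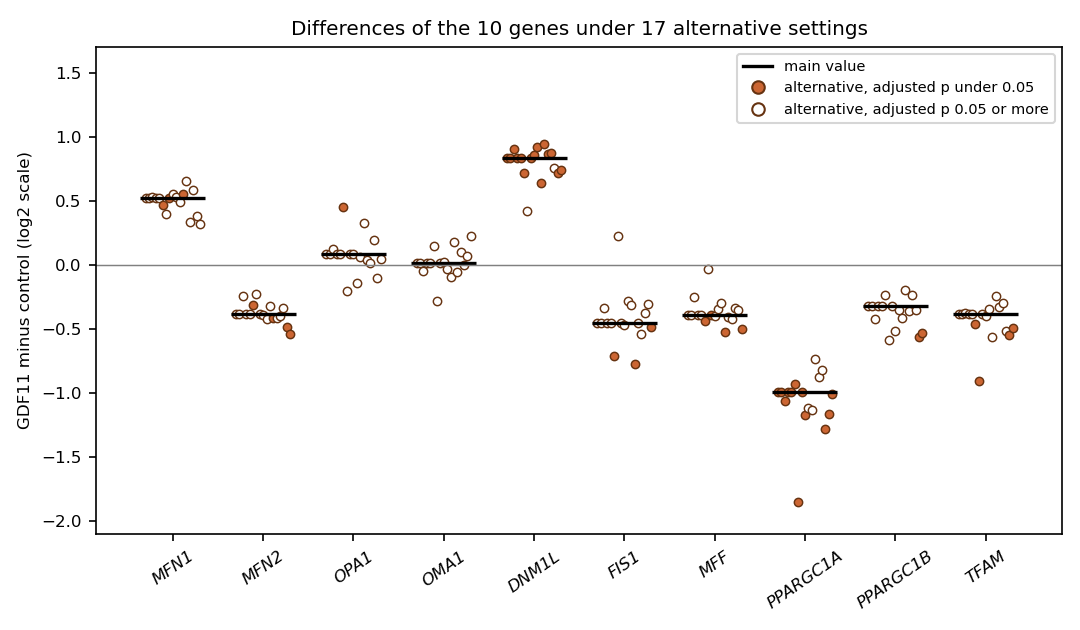
Difference GDF11 minus control on the log2 scale (vertical axis) of the 10 genes with all 6 libraries (black bars) and under 17 alternative settings (circles, filled where the limma adjusted p was under 0.05). DNM1L lies between 0.42 and 0.94 and PPARGC1A between -1.85 and -0.73, while OPA1, OMA1 and FIS1 lie on both sides of 0.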

How the data were processed

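Total RNA of HepG2 cultures was sequenced in 6 libraries as single reads of 75 bases, from 250 ng of RNA per directional library, per the labels' protocols. The authors deposited 1 table of variance-stabilised log2 values. The tools named per the submitters' processing notes are Trimmomatic, Salmon 1.2.1 and DESeq2, with GRCh38 as the build, but the labels' protocols name hg19 and STAR 2.6. The sources used here do not say which route made the table or whether counting used strand, so reads of overlapping and antisense genes cannot be told apart.

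The variance-stabilising curve was inverted to give normalised reads. Of the values under 20 reads, 71.0% to 74.2% in each library came out whole within 0.01; this was too few to recover counts, and a count model was not used. The scale keeps 0.696, 0.914 and 0.978 of a true log2 change at values of 8, 10 and 12. Depth was estimated from the step of 1 read. Replicate pairs had Pearson correlations of 0.982 to 0.994 over the tested genes, and no 2 libraries looked like copies.

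Genes with a mean at least 0.5 above the lowest value entered limma 3.58.1 (R 4.3.3, mean trend, two-sided, no covariate), with Benjamini-Hochberg adjustment over all of them. Its p-values measure the spread between these libraries. The fit was tested on simulated data. Paralogue pairs were compared by an exact permutation test, whose smallest p with 3 against 3 is 0.1. Intervals and SDs rest on 3 libraries per group.

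The 10 genes, the pathway lists and the rule for named genes were chosen with earlier results of these data known. The rule takes the 10 genes, up to 4 called genes with the lowest p of each list, and SMAD7, PPRC1, NRF1, ESRRA, YME1L1, MIEF1, MIEF2, POLRMT and TFB2M; SNPH, MT-ND3, MT-ND6 and the marker genes named were added after their values were seen. Symbols matched 58349 of the 60240 identifiers (96.9%), and PECAM1 was not matched. Of the endothelial markers the 3 matched summed to 53.1 to 97.3 normalised reads in the controls and 13.2 to 32.9 with GDF11, and VWF fell. Fibroblast and stellate markers summed to 822 to 1555 and 1978 to 2625 reads, most of them from PDGFRB (means of 1136 and 2172). Leukocyte markers, of which LYZ fell, summed to 68859 to 80400 and 32536 to 34201. Gene positions and promoters are RefSeq's on GRCh38.p14 (10 of 10 genes matched), and transcript lengths and GC content come from a GRCh37 annotation, had for 98.5% of tested genes. Alternatives covered filters, normalization, variance priors, RNA integrity as a covariate, library weights, a replicate block, a log2 scale of reads plus 1 and leaving out each library.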

Additional observations from a re-analysis of the deposited data

How the results depend on the processing

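Leaving out each library in turn gave 1397 to 3647 genes higher and 955 to 3993 lower over all tested genes, and 4 to 12 pathway genes higher and 1 to 28 lower. For single genes the ranges were 0.64 to 0.94 for DNM1L, -1.28 to -0.73 for PPARGC1A, 0.34 to 0.65 for MFN1, -0.42 to -0.32 for MFN2, -0.14 to 0.33 for OPA1, -0.094 to 0.18 for OMA1, -0.77 to -0.28 for FIS1 and -0.53 to -0.30 for MFF. When RNA integrity entered the fit as a covariate, DNM1L was at 0.42, FIS1 at 0.22, OMA1 at -0.28, OPA1 at -0.21, TFAM at -0.91, POLRMT at 0.10 and YME1L1 at -0.21, and counts were 1149 higher and 721 lower, with 3 and 1 pathway genes. With library weights, FIS1 was at -0.71, MFF at -0.44, MFN1 at 0.47, MFN2 at -0.31, OPA1 at 0.45 and TFAM at -0.46, and counts were 4473 and 4554, with 12 and 28 pathway genes. Control replicate 3 had a weight of 0.218 there. Removal of each library's trend on GC content and length, chosen after seeing the data, gave MFN2 -0.48, OPA1 -0.10, PPARGC1B -0.56 and TFAM -0.55, with 3079 genes and 20 pathway genes lower. Together with leaving out control replicate 3 it gave FIS1 -0.48, MFF -0.50, MFN2 -0.54, PPARGC1B -0.53, TFAM -0.49 and TFB2M 0.075, with 3657 and 4486 genes and 10 and 31 pathway genes. TFB2M ranged from -0.26 to 0.016 with 1 library left out. Without the filter, 6 pathway genes were higher and 8 lower (6.52% and 8.70%), where 6.37% and 5.15% of all 33597 genes in that fit were called. Quantile normalization put OMA1 at -0.052. The cause of these changes was not tested.

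Whether replicate numbers pair the libraries was not settled. Deviations of same-numbered libraries correlated at -0.088, 0.38 and 0.48 over genes for replicates 1, 2 and 3. Control replicates 2 and 3 correlated best with the GDF11 library of the same number, and control replicate 1 with GDF11 replicate 2 (0.25). With a replicate block, MFN1 (0.53, limma adjusted p = 0.0350) and MFF (-0.39, limma adjusted p = 0.0492) passed the threshold, with 3147 genes higher and 3306 lower and 10 and 18 pathway genes. Of 27 other named genes, 7 kept direction and side of the threshold in all 17 alternatives.

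With 3 libraries per group the SE of the 10 genes was 0.14 to 0.29, and the 8 genes that did not pass are not shown to be alike in both groups. Low genes such as PPARGC1B have compressed differences on this scale.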
